A study of Triticum aestivum with 16 samples.

Results

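The wheat (Triticum aestivum) lines SB165, SB169, SB10 and SB62 were bred from the parents Seri M82 x Babax as recombinant inbreds, and they were compared here with each other alone. The 8 arrays whose titles name these lines, 2 field replicates per line, were taken from the 16 arrays of 8 lines in the series. The other 4 lines, SB109, SB69, SB57 and SB3, were used only where variation inside SB165, SB169, SB10 and SB62 was set against variation elsewhere. Recombinant inbred lines of a cross are sister lines that have been selfed to near homozygosity, so that each line carries its own fixed mosaic of the parents' alleles. All lines grew in the same rain-fed field trial and received no contrasting treatment. Each array held RNA from the pooled main-tiller stem tops of 1 plot at anthesis, that is the upper internodes with the leaf sheath still on, and the labels name no line as high or low in carbohydrate. Such a pool mixes sheath, internode and peduncle tissue, so fewer cells of a type and less RNA per cell cannot be told apart.

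The wheat stem holds much of its carbohydrate around flowering as fructans, which fructosyltransferases build from sucrose and fructan exohydrolases break down when the grain needs sugar. Sucrose synthase and invertases cleave sucrose and so set how much of it enters growth, storage or cell walls. The peduncle is still extending at anthesis in wheat, and growing stem tissue makes histones for newly copied DNA and tubulins for microtubules.

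Values were deposited as normalized intensities and were used in log2, at which 1 unit is a 2-fold difference. The medians of the 8 arrays lay between 23.86 and 25.01 intensity units, and 61115 wheat probe sets were tested. Photosynthesis transcripts were among the brightest on the arrays, with a mean log2 level of up to 14.86, and 12 of their 37 probe sets lay above 8. Of the 17 probe sets of grain storage proteins, which mark developing grain, 1 lay above 8, and their median log2 level was 2.92. None of the 37 and none of the 17 passed the limma F-test among the 4 lines, where 2.91% of all wheat probe sets did, and 1 of each list had an unadjusted p below 0.05 (13.2% of all wheat probe sets).

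The replicates of SB165 stood apart from each other. On the first principal component, which held 47.4% of the variance of the 8 arrays, SB165 scored -9.91 in replicate 1 and 48.5 in replicate 2. SB169 scored -33.3 and -22.9, SB10 scored 40.9 and 62.7, and SB62 scored -37.1 and -48.7. After each probe set was centred on its mean, the replicates correlated at -0.133 in SB165 and at 0.497 to 0.537 in the other 3 lines. SB165 replicate 2 correlated best with SB10 replicate 2, at 0.455, and SB165 replicate 1 correlated above 0 with no array by more than 0.069. The labels give no reason, and the main counts and shares below that rest on SB165 are given with and without its arrays. The labels give the replicates as separate plots. Only 2 arrays stand for each line, which limits the precision.

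**Figure D1:**
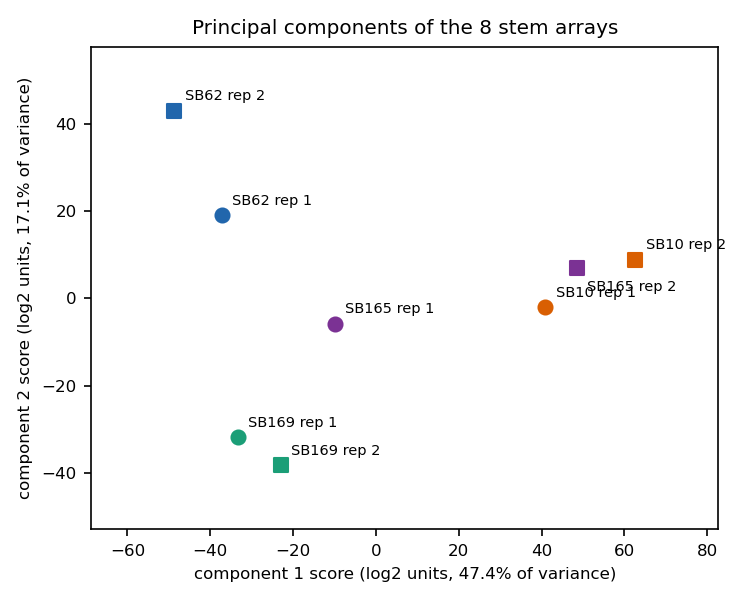
Scores of the 8 arrays on the first (horizontal) and second (vertical) principal components, in log2 units; colours mark lines, circles replicate 1 and squares replicate 2. Both SB10 arrays and SB165 replicate 2 lie at the right (40.9 to 62.7), whereas SB165 replicate 1 lies at -9.91, between SB10 and the other lines.

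The first question was how much of the variation between genotypes lay inside these 4 lines. The variance between the means of the 8 lines was first reduced by the part that replicate spread alone would give. Of the rest, 53.0% lay inside SB165, SB169, SB10 and SB62. A further 41.2% lay inside SB109, SB69, SB57 and SB3, and 5.73% lay between the means of the 2 sets of lines. By degrees of freedom alone each set of lines would hold 42.9%. With 1 array left out, the share inside the 4 lines lay between 46.5% (without SB10 replicate 2) and 60.4% (without SB165 replicate 1). Without both arrays of SB165 it was 50.8% with 3 lines, which hold 33.3% of the degrees of freedom. Before the correction for replicate spread the shares were 47.5% inside the 4 lines, 43.2% inside the other 4 and 9.33% between the sets. More was subtracted inside the other 4 lines (3921) than inside these 4 (3400), and the summed replicate variance was largest in SB3 (4454). These shares are descriptions and were not tested.

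A moderated F-test (limma, Benjamini-Hochberg adjustment over all wheat probe sets, adjusted p below 0.05) found 1776 probe sets that differed among the 4 lines, 2.91% of those tested. In simulated data with replicate spread as unequal as here, false calls of this F-test were well above the nominal share, so such counts are approximate. Far fewer probe sets differed in the simulation, all in SB10, so its share of false calls cannot be carried over to the 1776. The 1776 probe sets belonged to 1452 of the 45641 transcript clusters that the probe set names define. For 1305 of them (2.14% of those tested) the highest line mean was at least 2-fold above the lowest, and for 74 the line means spanned at least 4 log2 units. The median span of the 1776 was 1.34 log2 units, a fold of 2.53, against 0.25 over all wheat probe sets. The 1776 probe sets held 66.8% of the corrected variance inside the 4 lines. The same arrays chose these probe sets, so a wide span and a high share follow from the choice. The share called was 0.419% in the dimmest of 4 equal classes of mean intensity and 5.96% in the brightest. Without SB165 the same test over 3 lines called 4304 (7.04%), of which 1678 were among the 1776. Leaving out SB169 instead gave 900 (1.47%), leaving out SB10 742 (1.21%) and leaving out SB62 561 (0.918%). Single arrays moved the 4-line count by more than 1.5 times in each case. It was 4684 (7.66%) without SB165 replicate 1 and 3778 (6.18%) without SB165 replicate 2, and it lay between 705 (without SB62 replicate 2) and 1050 (without SB10 replicate 1) when any array of the other 3 lines was left out.

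The same test on the 8 arrays of SB109, SB69, SB57 and SB3, which share no array with these, called 1008 probe sets (1.65%). The lists had 650 probe sets in common, 36.6% of the 1776 and 64.5% of the 1008. The 1776 had a median span of 0.99 log2 units among the other 4 lines, against 0.29 for all wheat probe sets there.

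The second question was which line carried the variation. SB10 differed from the mean of the other 3 lines at 1369 probe sets (2.24%), of which 1111 were higher (1.82%) and 258 lower (0.422%) in SB10. SB62 differed at 959 (1.57%), with 224 higher (0.367%) and 735 lower (1.2%) in SB62. SB169 differed at 569 (0.931%), with 366 higher (0.599%) and 203 lower (0.332%) in SB169. SB165 differed at 272 (0.445%), with 165 higher (0.27%) and 107 lower (0.175%) in SB165. The leading line was not stable. Without SB165 replicate 1, SB62 had the most calls (3484), ahead of SB169 (2382), SB10 (2320) and SB165 (1516). SB62 also led without SB169 replicate 1 (596), without SB10 replicate 1 (685) or replicate 2 (727), and at an adjusted p threshold of 0.01 (402, against 381 in SB10). SB10 led without SB165 replicate 2 (3922), without SB169 replicate 2 (640) and without SB62 replicate 1 (738) or replicate 2 (543). These contrasts share arrays, since each line is part of the mean that the others are set against, and a single extreme line therefore shifts all 4 contrasts. Among the 1776 probe sets, SB10 lay farthest from the mean of the other 3 lines at 768 (43.2%), SB62 at 503, SB169 at 331 and SB165 at 174. SB10 had the highest mean at 888 of the 1776 and SB62 the lowest at 935.

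In the variance itself SB10 held 38.3% of the corrected sum inside the 4 lines, SB62 33.9%, SB169 24.3% and SB165 3.46%. Before the correction for replicate spread the shares were 32.9%, 30.1%, 22.4% and 14.6%, in the same order of lines. The summed replicate variance was 3611 in SB165, against 1445 to 2009 in the other 3 lines, so more was subtracted for SB165. The order rested on the arrays of SB165. Without SB165 replicate 1 the shares were 21.9% for SB10, 31.5% for SB62, 23.6% for SB169 and 23.0% for SB165. Without SB165 replicate 2 they were 47.6%, 26.5%, 18.7% and 7.20%. Without either array of SB165, SB10 held 49.8%, SB62 29.1% and SB169 21.1%. In that 3-line fit SB10 differed from the mean of SB169 and SB62 at 4174 probe sets, with 3093 higher (5.06%) and 1081 lower (1.77%) in SB10. SB62 then differed at 2340, with 472 higher (0.772%) and 1868 lower (3.06%) in SB62. SB169 differed at 1709, with 746 higher (1.22%) and 963 lower (1.58%) in SB169.

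**Figure D2:**
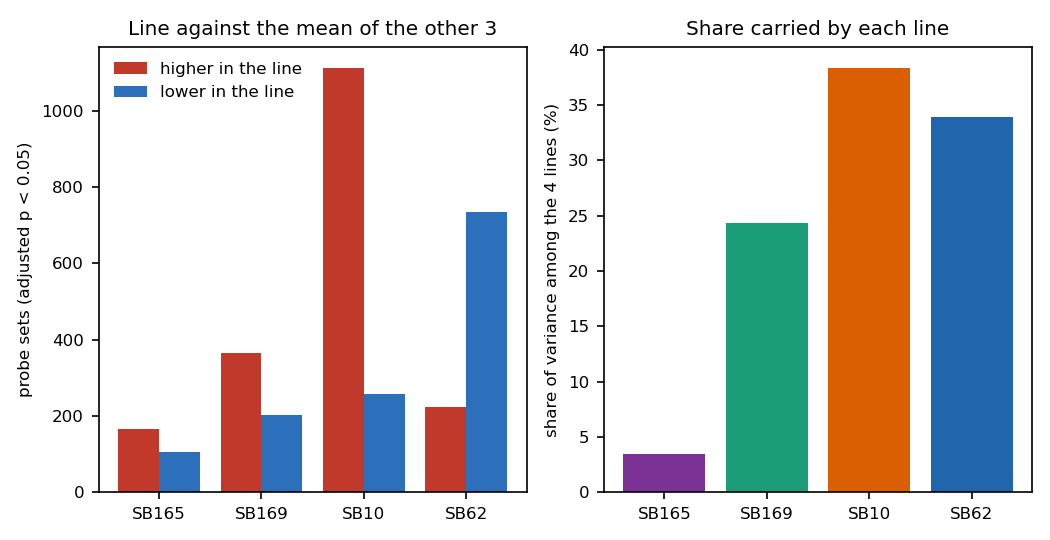
Left, the number of probe sets higher (red) or lower (blue) in each line than the mean of the other 3 at an adjusted p below 0.05; right, the share of the corrected variance among the 4 lines that each line held, in percent. SB10 has the most higher calls (1111) and SB62 the most lower calls (735), and SB165 has the smallest share (3.46%).

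With all 8 arrays SB10 and SB62 were the pair called apart most often. They differed at 1822 probe sets (2.98%), 1464 of them higher in SB10, and the corrected root mean square difference between them was 0.36 log2 units over all wheat probe sets. SB169 and SB10 differed at 1433 (2.34%), 405 of them higher in SB169, with a root mean square difference of 0.33. SB165 and SB62 differed at 659 (1.08%), 463 of them higher in SB165. SB169 and SB62 differed at 573 (0.938%), 437 of them higher in SB169. SB165 and SB169 differed at 326 (0.533%), 163 in each direction. SB165 and SB10 differed at the fewest, 233 (0.381%), 113 of them higher in SB165, and their root mean square difference was 0.13. The pairs share arrays. The estimate of spread was also shared by all lines in the fit, so the wide spread of the SB165 replicates entered the counts for every pair. With both arrays of SB165 left out, SB10 and SB62 differed at 3916 probe sets, SB169 and SB10 at 3246 and SB169 and SB62 at 930. Without SB165 replicate 1, SB165 differed from SB169 at 2265, from SB10 at 297 and from SB62 at 2971. Without SB165 replicate 2 those counts were 331, 1402 and 630, so SB165 and SB10 were no longer the pair with the fewest calls. The pair with the most calls also changed, to SB169 and SB10, with array weights (2467, against 2074 for SB10 and SB62) and without SB62 replicate 1 (789) or replicate 2 (777).

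A platform annotation table paired 1273 of the probe sets with 1 of 771 genes, and RefSeq synonyms gave a descriptive name to 199 of these. Of the 1273, 87 passed the F-test (6.83%, against 2.91% of all wheat probe sets). The 1273 were also brighter, with a median log2 level of 6.42 against 4.61. SB10 had the highest mean at 63 of the 87 and SB62 the lowest at 53. The gene lists below were chosen with earlier results of these data known.

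Fructan and sucrose hydrolysis was represented by 5 probe sets of 3 genes. Of these, 2 passed the F-test, against 2.91% of all wheat probe sets, and both were of the fructan exohydrolase 6-FEH. SB169 was the high line at both. At Ta.30950.1.A1_x_at the log2 level was 6.82 and 6.65 in SB169, against 5.39 and 5.08 in SB165, 5.85 and 5.53 in SB10 and 6.09 and 5.50 in SB62. Both SB169 arrays lay above the other 6, and the mean of SB169 was 1.16 ± 0.17 (SE) log2 units above the mean of the other 3 lines (limma adjusted p = 0.010). At Ta.9641.1.A1_a_at the level was 7.32 and 7.22 in SB169, against 6.15 and 5.31 in SB165, 6.37 and 6.09 in SB10 and 6.38 and 6.01 in SB62. Again no array of another line reached SB169, and the difference was 1.21 ± 0.20 (limma adjusted p = 0.020). The suffixes mark probes that can also bind related transcripts, so near-identical gene copies in wheat are not separated. At the remaining 6-FEH probe set, TaAffx.93410.1.S1_at, the 8 arrays lay at 5.72 to 6.24 (limma F-test adjusted p = 0.86). With either SB169 array left out, both calls in SB169 were lost (adjusted p = 0.14 to 0.29), and they were lost when the other 4 lines shared the estimate of spread (0.061 and 0.12). The call at Ta.9641.1.A1_a_at was also lost without SB10 replicate 2 or SB62 replicate 2 (0.060 and 0.078), and its F-test without any array of SB169, SB10 or SB62 (adjusted p = 0.061 to 0.23). The F-test at Ta.30950.1.A1_x_at was lost without either SB169 array (0.14 and 0.095). Among the other 4 lines the highest value was 6.64 at Ta.30950.1.A1_x_at, just below the lower SB169 value, and 6.86 at Ta.9641.1.A1_a_at. Replicates there lay farthest apart in SB109, at 5.54 and 6.64 and at 5.05 and 6.39. Replicate 2 lay above replicate 1 in each of the other 4 lines at both probe sets.

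The fructan exohydrolase 1-FEHw2 was far brighter, but its line means differed little. Its level was 10.78 and 10.59 in SB169, against 10.84 and 11.04 in SB165, 11.05 and 11.10 in SB10 and 11.23 and 11.30 in SB62. Its lines stayed within 0.58 log2 units, and the F-test did not pass (limma adjusted p = 0.069), though without both arrays of SB165 it did (adjusted p = 0.0036). SB169, the high line for 6-FEH, had the lowest mean at 1-FEHw2, where its difference of -0.41 ± 0.09 missed the threshold (limma, adjusted p = 0.080). That difference passed in 5 of 18 alternatives, 3 of them without SB165 arrays (adjusted p = 0.0043 to 0.024), the others with array weights (0.036) and with the spread shared over all 8 lines (0.038). The invertase IVR1 was dim throughout, at 2.65 to 3.40.

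Sucrose synthase is represented by probe sets for the start, the middle and the end of its transcript. At the middle its log2 level was 10.38 and 10.17 in SB10, against 9.94 and 9.59 in SB165, 9.53 and 9.71 in SB169 and 9.77 and 9.65 in SB62. Both SB10 arrays lay above the other 6, by a difference of 0.58 ± 0.12 (limma adjusted p = 0.033), but the F-test over the 4 lines did not pass (adjusted p = 0.092). Without both arrays of SB165 the F-test passed there (adjusted p = 0.0041) and at the end of the transcript (adjusted p = 0.023). The call in SB10 was lost in 8 of 18 alternatives. It was lost with any array of SB10, SB169 or SB62 left out (adjusted p = 0.071 to 0.26), with quantile normalization (0.061) and without the intensity trend (0.056). None of the 25 control probe sets that carry wheat gene names passed the F-test in limma, which 2.91% of all wheat probe sets passed. Of the 25, 6 had an unadjusted p below 0.05 (13.2% of all wheat probe sets). The probe set of glucose-6-phosphate dehydrogenase closest to passing, for the start of the transcript, averaged 7.57 ± 0.20 in SB10, against 6.96 ± 0.19 in SB165, 7.02 ± 0.21 in SB169 and 6.67 ± 0.33 in SB62 (SD, n = 2 each, limma F-test adjusted p = 0.11). That enzyme feeds sugar phosphate into the oxidative pentose phosphate pathway.

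Among 7 probe sets of starch and sugar phosphate enzymes, 1 passed the F-test, against 2.91% of all wheat probe sets. It belonged to BMY1, a beta-amylase, which releases maltose from starch. Its level was 4.34 and 3.94 in SB62, against 5.08 and 5.93 in SB165, 5.08 and 5.80 in SB169 and 5.94 and 6.35 in SB10. Both SB62 arrays lay below the other 6, and SB62 fell by 1.56 ± 0.25 log2 units against the mean of the other 3 lines (limma adjusted p = 0.012). The F-test (adjusted p = 0.023) was lost when any array of SB10 or SB62 was left out, with adjusted p of up to 0.25. Phosphoglycerate kinase (Pgk-1) and ADP-glucose pyrophosphorylase (AGP-S), the bright members of the list, stayed within 12.98 to 13.21 and 8.74 to 8.98.

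Tubulins are the building blocks of microtubules. Of their 10 probe sets, 2 passed the F-test among the 4 lines (2.91% of all wheat probe sets), and both were higher in SB10. All 10 had an unadjusted F-test p below 0.05, as did 13.2% of all wheat probe sets. The alpha-tubulin probe set Ta.723.1.S1_at (TUBA-2D) had log2 levels of 9.51 and 8.72 in SB10, against 8.11 and 8.05 in SB165, 7.41 and 7.32 in SB169 and 7.58 and 7.00 in SB62. Both SB10 arrays lay above all others, and the difference from the mean of the other 3 lines was 1.54 ± 0.20 (limma adjusted p = 0.0047). Without SB10 replicate 1 the contrast narrowly missed (adjusted p = 0.054), while the F-test passed with each array left out (adjusted p = 0.00074 to 0.034). The beta-tubulin tubb2 had 13.03 and 13.18 in SB10, against 12.15 and 12.84 in SB165, 12.07 and 12.17 in SB169 and 12.11 and 12.14 in SB62. SB165 replicate 2 came closest to SB10 there, while SB165 replicate 1 lay with SB169 and SB62. The tubb2 difference in SB10 was 0.86 ± 0.15 (limma adjusted p = 0.016), and its F-test was lost when any array of SB169, SB10 or SB62 was left out (adjusted p of up to 0.27).

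Without both arrays of SB165 all 10 tubulin probe sets passed the F-test over SB169, SB10 and SB62, where 7.04% of all wheat probe sets did. In that fit 10 of 10 were higher in SB10 than the mean of SB169 and SB62, against 5.06% of all wheat probe sets. All 10 also passed the 4-line F-test with either SB165 array left out alone, where 7.66% and 6.18% of all wheat probe sets did. The 10 probe sets represent 6 genes, and related tubulin copies can bind the same probes. The median over the 10 of the SB10 difference was 0.69 log2 units with all 8 arrays, against -0.05 over all wheat probe sets. Between SB169 and SB10, 5 of the 10 were lower in SB169 with all arrays in the fit (1.68% of all wheat probe sets), and the median difference was -0.99.

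Histones, which package DNA, were brightest on both SB10 arrays and SB165 replicate 2. None of 18 probe sets for histones H2A and H2B passed the 4-line F-test in limma, which 2.91% of all wheat probe sets passed. Of the 18, 12 had an unadjusted p below 0.05 (13.2% of all wheat probe sets), and 1 was higher in SB10 (1.82% of all wheat probe sets). At wcH2A-9, Ta.27657.1.S1_at, the level was 5.39 and 7.09 in SB10, against 4.47 and 6.15 in SB165, 3.53 and 3.89 in SB169 and 3.68 and 3.50 in SB62. SB165 replicate 2 lay between the SB10 arrays, and the groups of SB165 and SB10 overlapped, whereas SB169 and SB62 lay below both. The difference in SB10 was 2.04 ± 0.45 (limma adjusted p = 0.048). Over the 18 probe sets the median deviation from the mean of the 8 arrays was 0.24 and 1.62 in SB10, -0.40 and 0.82 in SB165, -0.65 and -0.54 in SB169 and -0.53 and -0.50 in SB62. The summed intensity of the 18 ran in the same direction, with 1032 and 2378 in SB10, 693 and 1539 in SB165, 642 and 625 in SB169 and 653 and 688 in SB62. The SB10 replicates therefore differed from each other as well, by more than SB169 and SB62 differed.

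Without both arrays of SB165, 12 of the 18 histone probe sets passed the F-test (7.04% of all wheat probe sets), and 13 were higher in SB10 than the mean of SB169 and SB62 (5.06%). Without SB165 replicate 1 it was 12 of 18 in the F-test (7.66% of all wheat probe sets), and without replicate 2 it was 10 of 18 (6.18%). Several of the 18 carry suffixes of shared probes, and they stand for 5 genes. The photosynthesis list showed no such shift on any array, with median deviations of -0.06 to 0.08. The tubulin and histone medians were highest on the 3 arrays with the highest scores on the first principal component, both SB10 arrays and SB165 replicate 2.

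**Figure D3:**
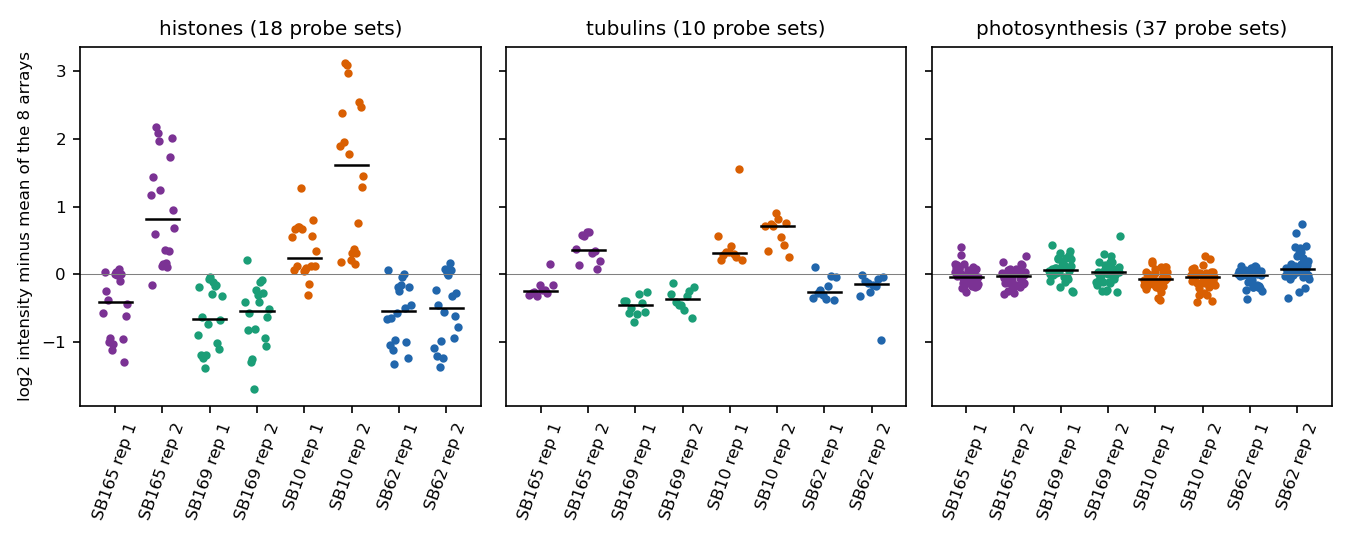
Log2 intensity minus the mean of the 8 arrays (vertical axis) for each probe set of the histone, tubulin and photosynthesis lists; columns are arrays, points probe sets and black bars medians. Histones have medians of 1.62 in SB10 replicate 2 and 0.82 in SB165 replicate 2, while the photosynthesis medians stay within -0.06 to 0.08.

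LTP3, a lipid transfer protein of the kind that carries lipids to the plant surface, had the largest rise of a gene-paired probe set in SB10. At Ta.1282.4.S1_at its level was 9.75 and 9.90 in SB10, against 5.41 and 5.72 in SB165, 6.15 and 5.32 in SB169 and 6.10 and 6.31 in SB62. SB10 stood more than 3 log2 units above every array of the other lines, and the difference was 3.99 ± 0.19, a fold of 15.9 (limma adjusted p = 8.8e-06). The call was kept under each of 18 alternatives. In the other lines the level was 9.32 and 9.58 in SB109, 8.97 and 9.40 in SB69, 5.36 and 6.22 in SB57 and 9.44 and 9.67 in SB3, so 3 of them lay near SB10. LTP3 also passed as lower in SB165 and SB169 than the mean of the other 3, a mean that holds the SB10 arrays.

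The small heat shock protein hsp16.9A, a chaperone that keeps unfolding proteins from clumping, was the largest gene-paired rise in SB165. Its level was 7.82 and 6.46 in SB165, against 2.50 and 2.54 in SB169, 2.96 and 2.72 in SB10 and 2.52 and 2.82 in SB62. The 6 low arrays lay below 3.28, the upper bound of the dimmest intensity class, so the fold depends on how the array's normalization treats dim signal. The difference was 4.47 ± 0.28, a fold of 22.1 (limma adjusted p = 5.8e-05), and it was kept in each of 16 alternatives. Among the other lines it was bright in SB109 (6.18 and 6.27) and SB3 (6.56 and 4.62) and dim in SB69 (2.78 and 2.43) and SB57 (2.47 and 2.26). The other 10 probe sets of stress and seed maturation proteins, among them the dehydrin WCOR410 and the seed proteins Em and Rab15, did not pass.

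Of 21 probe sets for thionins and inhibitor or pathogenesis-related proteins, 3 passed the F-test, against 2.91% of all wheat probe sets. XIP-I, an inhibitor of xylanases that attack the cell wall, was high in SB10 and SB165. At Ta.1200.1.S1_x_at it had 6.85 and 6.78 in SB10, against 6.33 and 6.73 in SB165, 5.53 and 5.65 in SB169 and 5.62 and 5.24 in SB62. The SB10 arrays lay above the SB165 arrays by little and above the other lines by more than 1 log2 unit. The SB10 difference was 0.96 ± 0.14 (limma adjusted p = 0.0090) and SB62 fell by 0.88 ± 0.14 (limma adjusted p = 0.014). Its second probe set had the same order of SB10 and SB165 above SB169 and SB62 (limma F-test adjusted p = 0.013), lost when any array of SB169, SB10 or SB62 was left out. The purothionin probe set Ta.23967.1.S1_s_at (Pur-B1), of a toxic seed peptide family, had 4.28 and 3.81 in SB62, against 5.56 and 6.26 in SB165, 4.87 and 5.39 in SB169 and 5.30 and 4.92 in SB10. SB62 lay below the other arrays, and fell by 1.34 ± 0.22 (limma adjusted p = 0.014), but the F-test was lost with either SB62 array left out. The pathogenesis-related protein PR5 was the bright member of the list. It had 10.79 and 11.16 in SB169, against 9.92 and 9.84 in SB165, 10.54 and 9.23 in SB10 and 9.72 and 9.27 in SB62, and its F-test did not pass (limma adjusted p = 0.12). Among 4 probe sets of the gibberellin 20-oxidases, which make the hormone that drives stem elongation, none passed the F-test in limma. Of 8 for translation factors and ribosomal proteins none passed either. An unadjusted p below 0.05 was reached by 2 of the 4 and 1 of the 8, against 13.2% of all wheat probe sets.

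Most of the gene-paired probe sets with the largest differences carry no descriptive name in the tables used. LOC543445 had 3.41 and 3.56 in SB62, against 8.55 and 9.47 in SB165, 8.63 and 8.96 in SB169 and 9.66 and 9.57 in SB10. Both SB62 arrays lay far below the other 6, and SB62 fell by 5.66 ± 0.20 (limma adjusted p = 2.7e-07, 50.4-fold lower). Among the other lines it was high only in SB3, at 9.58 and 9.70, and it lay at 3.41 to 5.61 in SB109, SB69 and SB57. LOC543287 had 4.06 and 3.56 in SB169, against 6.06 and 7.00 in SB165, 8.75 and 7.32 in SB10 and 6.08 and 5.16 in SB62. It had the largest gene-paired fall in SB169, which fell by 2.92 ± 0.38 (limma adjusted p = 0.0046). That call was lost with either SB169 array left out (adjusted p = 0.060 and 0.14).

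LOC543111 split the lines. At Ta.22794.1.S1_x_at it had 8.69 and 8.74 in SB10 and 8.14 and 7.79 in SB165, against 6.22 and 6.26 in SB169 and 6.35 and 6.19 in SB62. Both SB165 arrays lay with SB10 at this gene, unlike their scores on the first component. The difference was 1.89 ± 0.12 in SB10 and 0.89 ± 0.12 in SB165 (limma adjusted p = 4.1e-05 and 0.0070), and the SB165 call was kept in each of 16 alternatives. At the second probe set of the gene, Ta.22794.1.S1_at, the SB165 difference was 0.79 ± 0.13 (limma adjusted p = 0.030). That call was lost in 6 of 17 alternatives, among them the run without SB165 replicate 1. LOC606356 and LOC606354 instead followed the single arrays of SB165. LOC606356 at Ta.28244.1.A1_s_at had 7.31 and 7.91 in SB10 and 5.34 and 7.76 in SB165, against 3.43 and 4.20 in SB169 and 3.84 and 3.59 in SB62. Its rise in SB10, of 2.91 ± 0.48 (limma adjusted p = 0.015), was lost with either SB10 array left out (adjusted p = 0.084 and 0.23) and with either SB62 array (0.052 and 0.068). LOC606354 had 7.79 and 7.35 in SB62, against 9.05 and 10.78 in SB165, 8.06 and 8.12 in SB169 and 10.50 and 10.98 in SB10, and fell by 2.01 ± 0.34 in SB62 (limma adjusted p = 0.018). That fall was lost with any array of SB62 or SB169 left out (adjusted p = 0.054 to 0.38).

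**Figure D4:**
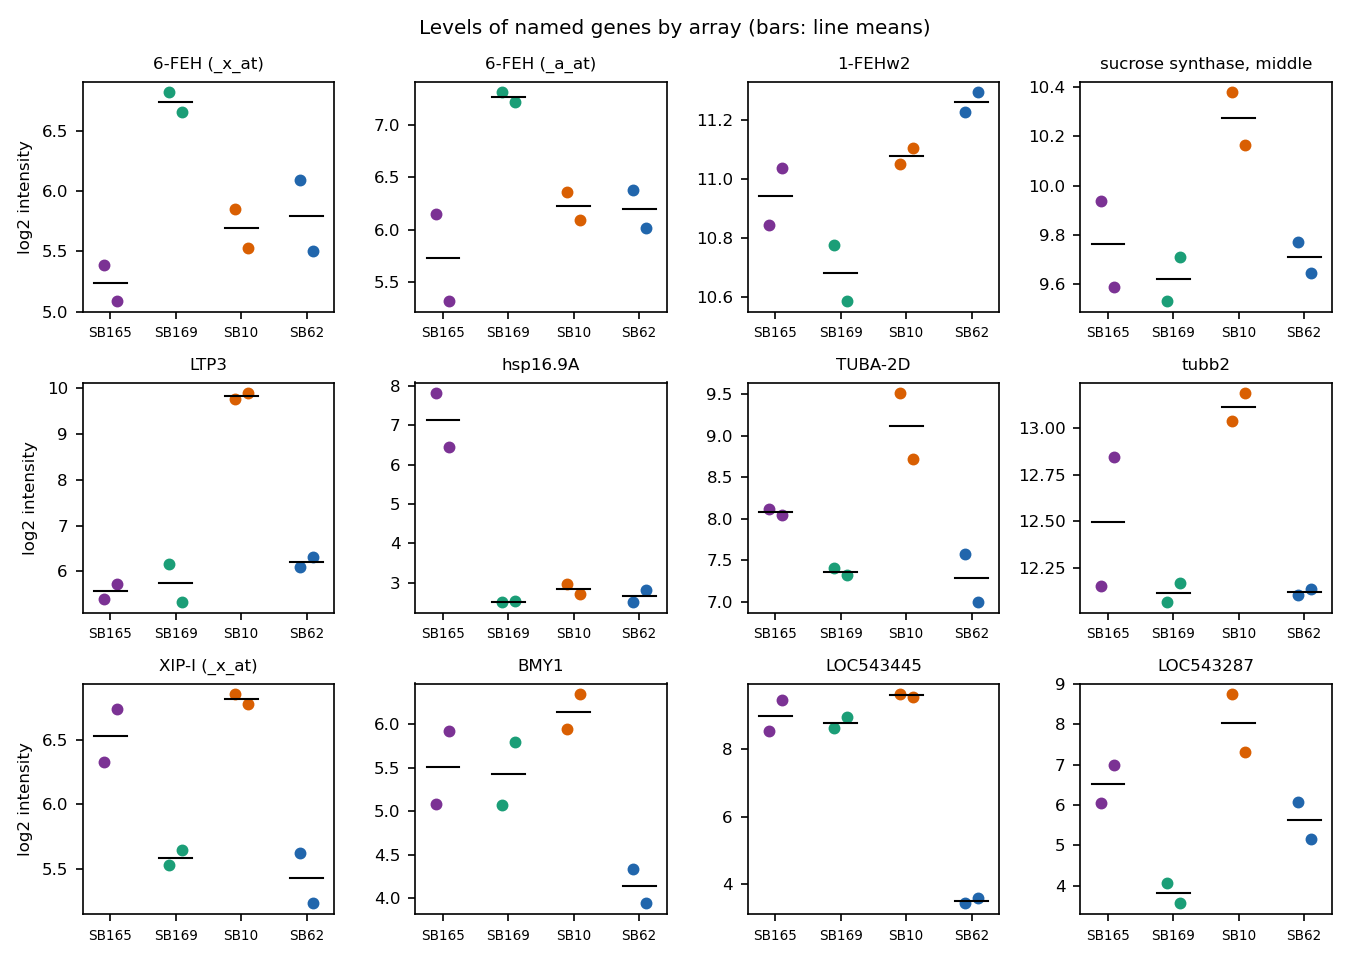
Log2 intensity (vertical axes, which differ between panels) of 12 probe sets in the 2 arrays of each line (points) with the line mean (bars). SB169 is high at both 6-FEH probe sets, SB10 at LTP3 and TUBA-2D, SB165 at hsp16.9A, and SB62 is low at LOC543445 and BMY1.

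The largest rise and fall of each line lay outside the annotated genes, and several are given by identifier. Ta.4606.1.A1_at was high in SB165, at 8.88 and 8.20, against 2.03 and 2.78 in SB169, 5.10 and 2.63 in SB10 and 2.48 and 1.79 in SB62. The rise in SB165 was 5.73 ± 0.51 (limma adjusted p = 0.00057). SB109, SB57 and SB3 were high there too (8.10 to 8.77), and SB69 had 5.03 and 2.20. TaAffx.410.1.S1_at was low in SB169, at 2.89 and 3.01, against 8.51 and 9.12 in SB165, 9.11 and 9.53 in SB10 and 8.51 and 8.34 in SB62, and SB169 fell by 5.90 ± 0.17 (limma adjusted p = 2.0e-07). It was also low in SB109 (3.35 and 2.89) and SB57 (3.22 and 3.28), and high in SB69 (9.05 and 9.30) and SB3 (9.13 and 9.24). Ta.23013.3.S1_s_at was low in SB62, at 5.21 and 6.17, against 12.30 and 12.17 in SB165, 12.36 and 12.36 in SB169 and 12.14 and 12.15 in SB10, and SB62 fell by 6.55 ± 0.19 (limma adjusted p = 7.4e-08). SB109 (5.59 and 5.53) and SB57 (6.27 and 5.75) were low there too, SB3 was high (11.91 and 11.71), and SB69 had 9.86 and 6.16. Ta.1112.1.S1_at was high in SB62, at 8.09 and 7.63, against 2.55 and 4.99 in SB165, 2.56 and 2.50 in SB169 and 2.66 and 2.39 in SB10, and all 8 arrays of the other 4 lines lay between 2.02 and 2.88 there. At TaAffx.113846.1.S1_s_at, the largest rise of any line, SB169 had 11.01 and 10.74, against 3.41 and 3.05 in SB165, 8.30 and 2.58 in SB10 and 2.82 and 4.13 in SB62. The rise was 6.83 ± 1.07 in SB169 (limma adjusted p = 0.015), yet the SB10 replicates differed there by more than 5 log2 units, and with either SB169 or either SB62 array left out the call was lost (adjusted p = 0.058 to 0.23).

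The 1776 probe sets were sorted by whether 1 wide gap parted their line means into a low and a high level. At 964 of them (54.3%, in 842 clusters) the widest gap between ordered line means took more than 60% of their range, and at 599 a single line stood against the other 3. With all 8 arrays the most frequent split put SB165 and SB10 high and SB169 and SB62 low, at 196 probe sets. SB62 alone was low at 168 and SB10 alone high at 126. SB169 alone was high at 101, SB165 alone high at 43 and SB165 alone low at 24. The splits with SB165 moved with its arrays. Without SB165 replicate 1, SB165 and SB10 were high together at 1271 of 2686 probe sets, SB165 alone was high at 83 and SB165 alone was low at 102. Without SB165 replicate 2 these were 84, 61 and 35 of 2338, and SB10 alone was high at 1292. Since a gap was required of the 4 lines, the split itself is a description. Means without 2 levels can also meet this rule by their spacing, and how often they would was not tested. Over SB169, SB10 and SB62 alone the count was 3712, out of 4304 calls, and with 3 lines a single gap takes a larger part of the range more readily.

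The other 4 lines took no part in that choice, and their arrays were set against the midpoint of each gap. Of 3856 cases of a line at a probe set, both arrays lay on the same side of the gap's midpoint in 3388 (87.9%), and 951 of 7712 array values (12.3%) lay between 33.3% and 66.7% of the way across the gap. At 865 of the 964 probe sets the arrays of the other 4 lines lay on both sides of the midpoint, for which a single array across it was enough. Where SB165 and SB10 were high, SB57 was low with both arrays at 160 of the 196 and SB3 high at 155. Where SB62 alone was low, SB3 was high with both arrays at 154 of the 168, while SB69 was low at 112, SB57 at 102 and SB109 at 89. Where SB10 alone was high, the SB3 arrays lay on opposite sides at 60 of the 126 and those of SB69 at 27, while SB57 was low with both arrays at 111.

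At 178 probe sets, in 154 clusters, the gap was at least 2 log2 units, with a median low level of 4.34 and a median high level of 7.46. There the other lines had both arrays on the same side in 697 of 712 cases (97.9%), and 69 of 1424 array values (4.85%) lay between 33.3% and 66.7% of the way across. SB69 replicate 1 gave 24 of the 69. Beyond the high level, 33 of 178 values of SB3 replicate 2 lay at more than 1.5 times the gap above the low level, against 0 to 2 on each of the other 7 arrays. Agreement of replicates was not set against other probe sets. SB165 had its own replicates on opposite sides at 23 of the 178, SB10 at 1 and SB169 and SB62 at none. At 31 of them the low level lay below the upper bound of the dimmest intensity class. A difference in transcript level and a sequence difference under the probes give the same reading on these arrays and cannot be told apart.

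**Figure D5:**
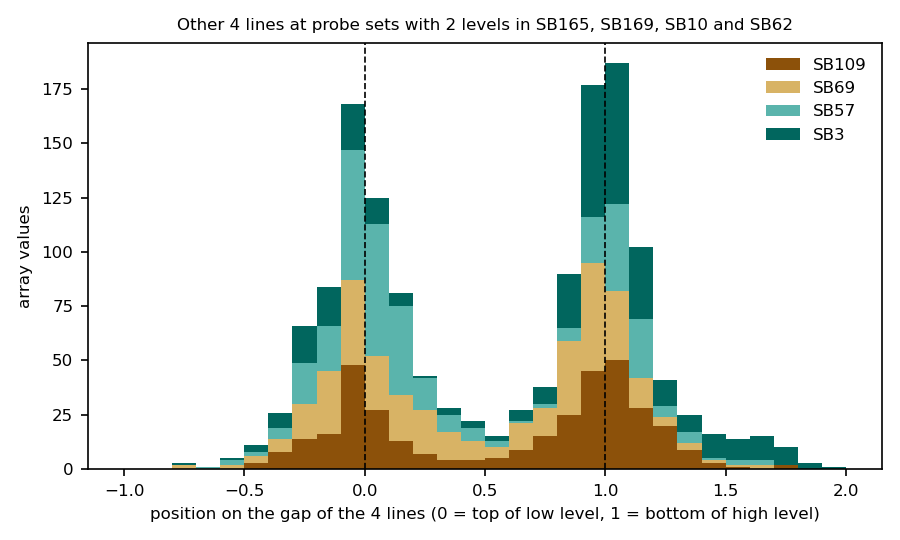
Position of the 1424 array values of SB109, SB69, SB57 and SB3 on the gap between the low level (0) and the high level (1) at the 178 probe sets where SB165, SB169, SB10 and SB62 differed by a gap of at least 2 log2 units; bars count array values and colours mark lines. Values gather near 0 and 1, and 69 of them (4.85%) lie between 33.3% and 66.7% of the way across.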

How the data were processed

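Stem RNA from single plots was labelled with biotin and hybridised to Affymetrix wheat arrays, 1 array per sample. The deposited intensity values, 1 per probe set and array, had been normalized by the authors. The tools listed in the submitters' processing notes are GCOS and RMA, and neither their order nor a version is stated there. Their linear scale was inferred from the values. RMA equalises distributions between arrays and compresses dim signal.

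The table held 61289 probe sets and 0 missing values; 110 control and 64 reporter probe sets were left out. Intensities were floored at 1, which changed 0 values, and converted to log2. limma 3.58.1 (R 4.3.3) fitted 1 mean per line to the 8 arrays, with spread moderated along an intensity trend (6.20 prior and 4 residual degrees of freedom). It gave an F-test over the 4 lines, each line against the mean of the other 3 and the 6 pairs, with Benjamini-Hochberg adjustment within each test. Variance shares subtract the replicate spread and are sums over probe sets.

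The 5 largest rises and falls per line among gene-paired probe sets past both tests were eligible for naming, with all probe sets of fructan and sucrose enzymes and the largest rise and fall of each line overall. Members, lists and tests were chosen with earlier results of these data known. The platform annotation named 1273 probe sets and RefSeq matched 1272 of them. Sucsyn and G-6-PDH were read as sucrose synthase and glucose-6-phosphate dehydrogenase. The fit was tested on simulated data, where it recovered most shifted probe sets; with replicate spread as unequal between lines as here, false calls were well above the nominal share. Alternatives are listed with their effects at the end. Plots were drawn with matplotlib 3.10.9.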

Additional observations from a re-analysis of the deposited data

Results flagged for a closer look

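1 of the 64 reporter probe sets, which the array carries for sequences foreign to the wheat genome and which entered no comparison, was bright on all 8 arrays. Its mean log2 intensity was 13.84, with a range of 13.64 to 14.04, and the next brightest reporter averaged 5.95. No control arrays belong to the series.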

How the results depend on the processing

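Quantile normalization, centring on array medians, no intensity trend and a floor of 4 left all 18 counts within 1.5 times. Of 59 results for named probe sets, 22 kept direction and status, called or uncalled, in every alternative run. The 22 include results that were never called. These were for IVR1, the 6-FEH probe set TaAffx.93410.1.S1_at and the middle and end of sucrose synthase in SB169. When all 8 lines shared the spread, the 3-line counts were 2210 without SB165, 1491 without SB169 and 1120 without SB62. The labels share replicate numbers, but nothing in them ties a number to a shared block. Deviations of same-numbered arrays from their line means correlated above 0.1 in the 3 pairs among SB165, SB169 and SB10 and at -0.20 to -0.0029 in the 3 pairs with SB62. With replicate number as a block the 4-line count was 2510, SB10 gave 2038, SB169 862, and the 3-line counts without SB169 and SB62 were 1486 and 1277. A filter on dim probe sets, which tests fewer of them, gave 195 for SB165 and SB169, 153 for SB165 and SB10, and 3-line counts of 582 without SB169, 481 without SB10 and 282 without SB62. Array weights gave 978 for SB169 and 2467 for SB169 and SB10, above the 2074 for SB10 and SB62, and were not run for the 3-line tests. Without probe sets of shared probes SB10 and SB62 gave 1202, and the 3-line count without SB165 was 2661. At an adjusted p threshold of 0.01 the 4-line test called 743, 693 of them 2-fold apart. There SB165 gave 159, SB169 240, SB10 381 and SB62 402. The pairs gave 174 (SB165 and SB169), 129 (SB165 and SB10), 327 (SB165 and SB62), 346 (SB169 and SB10), 307 (SB169 and SB62) and 618 (SB10 and SB62). The 3-line counts were then 2519, 331, 346 and 202 without SB165, SB169, SB10 and SB62, 495 probe sets had 2 levels and 339 overlapped with the other lines. Without the probe sets called among the 8 lines, the share inside the 4 lines was 59.1%, with SB165 at -14.4% and SB10 at 53.6% of it. A share below 0 arises where the replicate spread subtracted for a line exceeds the squared deviations of its means. The shares of single lines are therefore unreliable in that run.

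With single arrays left out, the 4-line count ran from 705 to 4684 and the 2-fold count from 653 to 2415. The counts ran from 178 to 1516 for SB165, 163 to 2382 for SB169, 260 to 3922 for SB10 and 209 to 3484 for SB62. For pairs they ran from 132 to 2265 (SB165 and SB169), 153 to 1402 (SB165 and SB10), 234 to 2971 (SB165 and SB62), 255 to 3248 (SB169 and SB10), 232 to 927 (SB169 and SB62) and 323 to 3921 (SB10 and SB62). Probe sets with 2 levels ran from 512 to 2686 and the overlap from 426 to 752. The share inside the 4 lines ran from 46.5% to 60.4%, SB165 held 2.11% to 23.0% of it, SB169 15.9% to 27.9%, SB10 21.9% to 47.6% and SB62 24.9% to 40.4%. A line with 1 array left was assumed to vary like the others.

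Without both arrays of SB165, a choice made after seeing the data, SB169 gave 1709, SB10 4174 and SB62 2340, and the pairs 3246 (SB169 and SB10), 930 (SB169 and SB62) and 3916 (SB10 and SB62). Probe sets with 2 levels were then 3712, and the SB10 share was 49.8%. The hsp16.9A difference in SB10, negative against a mean holding SB165, was then 0.24. The uncalled difference of the sucrose synthase start in SB169 turned to 0.011 without SB165 replicate 1 and 0.034 without SB169 replicate 1, and with single arrays left out it ran from -0.30 to 0.034. The alternatives for 2-level patterns and the overlap were also chosen after seeing the data. The cause of these shifts was not tested. Dim probe sets, where RMA compresses differences, and 2 arrays per line limit what was detectable.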
